A study of Mus musculus with 144 samples.

Results

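Proteasome subunit genes were followed across the RNA-seq libraries of a mouse study of liver clocks. A gene was taken as a member when its symbol was Psma, Psmc, Psmd, Psme, Psmf or Psmg with a number, or Psmb1 to Psmb7 or Psmb10, and the transcript with the largest mean was kept for each symbol. Of 24421 symbols in the tables, 45 were members. They comprised 16 genes of the core particle (8 alpha-ring genes, 7 constitutive beta-ring genes and the immunoproteasome gene Psmb10) and 17 of the regulatory particle (6 ATPases, 3 non-ATPase base subunits and 8 lid subunits). The other 12 were 3 assembly chaperones of the regulatory particle, 4 assembly chaperones of the core, 4 activators and 1 inhibitor. All 45 passed the filter for low values in every table, though Psma8 was near the floor in liver.

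The study addressed the part of the hepatocytes' clock, and of the time of feeding, in the daily expression of liver cell types. All libraries came from male C57BL/6J mice on normal chow that were either controls (WT) or carried a REV-ERB a/b double knockout, which the series' description places in adult hepatocytes. REV-ERBs are nuclear receptors that repress clock genes and other genes. Whole liver was collected at ZT (Zeitgeber time, in hours from the start of the light phase) 1, 4, 7, 10, 13, 16, 19 and 22 from mice fed ad libitum and from mice fed in reverse phase, and endothelial and Kupffer cells were isolated at ZT 4, 10, 16 and 22 (the labels do not name the feeding schedule of these mice). Each of the 48 groups held 3 libraries, so a genotype was represented by 24 libraries in each liver series and by 12 in each cell series. The ages, the hours of food access, the way the recombinase was delivered, and whether each library was 1 animal were not given in the sources used here. P-values therefore measure the spread between these libraries, which may be in part technical.

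The proteasome degrades proteins tagged with ubiquitin. Its core particle is a barrel in which outer alpha rings gate an inner chamber and beta subunits carry the cutting sites, and the regulatory particle caps the barrel, where receptors bind ubiquitin, the lid strips it and the ATPase ring unfolds and threads the substrate. Immune cells and cells exposed to interferon replace the catalytic beta subunits with Psmb8, Psmb9 and Psmb10 and use the activator made of Psme1 and Psme2, which changes the peptides made for antigen presentation. When proteasome activity is low, the transcription factor encoded by Nfe2l1 (NRF1) raises the transcription of many subunit genes together.

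Total counts were between 4567612 and 10364900.5 per library in ad libitum liver and between 13117814 and 26191933 in reverse-phase-fed liver. Liver values are given as TMM-normalised CPM, counts scaled to a common library size. The members together took between 0.278% and 0.357% of the counts in ad libitum liver and between 0.313% and 0.417% in reverse-phase-fed liver. The endothelial and Kupffer tables held quantile-normalised values, so their depth is unknown and they are not on the liver scale. Endothelial markers summed to a mean of 1.65% of the signal in control endothelial libraries, and Kupffer markers to 2.43% in control Kupffer libraries, against 0.0126% and 0.0253% in control liver fed ad libitum. Counts over whole transcripts do not test the deletion: Nr1d1 itself was at 45.7 ± 57.4 CPM in controls and 73.8 ± 52.3 CPM in knockout (mean ± SD, n = 24 each, ad libitum). The REV-ERB target Npas2 was at 4.48 ± 6.20 CPM in controls and 18.5 ± 4.68 CPM in knockout. For Nr1d1 and Npas2 the CPM here is relative to the library total, without TMM, and the SD spans all times of day. In transcript-length trend, spread or ribosomal RNA share 8 libraries stood apart (2 in ad libitum liver, 2 in endothelial and 4 in Kupffer cells).

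The promoters of 4 members that the results turn on were read from RefSeq (build GRCm38.p6, 250 bases before to 50 after the start site, in the sense of the gene). Psmb10 (chr8:105938343-105938642, minus strand) and Psme1 (chr14:55578244-55578543, plus strand) were the members with the largest fall in knockout liver. Psmd11 (chr11:80428365-80428664, plus strand) was the lid gene that rose under both feeding schedules, and Psmd14 (chr2:61711444-61711743, plus strand), which encodes the lid's deubiquitinase, had one of the widest daily ranges. Capitals mark an E-box in Psmb10, the core of an interferon-stimulated element in Psme1 and CCAAT boxes in Psmd14. None of the 7 motifs searched was found in the window of Psmd11.
Psmb10: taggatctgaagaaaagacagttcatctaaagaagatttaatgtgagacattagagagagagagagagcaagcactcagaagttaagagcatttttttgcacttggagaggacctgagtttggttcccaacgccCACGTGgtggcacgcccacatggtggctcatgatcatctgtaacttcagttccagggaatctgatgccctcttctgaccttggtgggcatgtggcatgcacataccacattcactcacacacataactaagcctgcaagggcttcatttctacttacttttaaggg
Psme1: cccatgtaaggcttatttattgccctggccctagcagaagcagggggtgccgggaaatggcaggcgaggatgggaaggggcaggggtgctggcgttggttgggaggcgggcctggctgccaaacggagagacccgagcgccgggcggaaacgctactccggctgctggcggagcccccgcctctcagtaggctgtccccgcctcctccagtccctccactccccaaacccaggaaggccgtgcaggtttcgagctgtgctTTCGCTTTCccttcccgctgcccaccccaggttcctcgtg
Psmd14: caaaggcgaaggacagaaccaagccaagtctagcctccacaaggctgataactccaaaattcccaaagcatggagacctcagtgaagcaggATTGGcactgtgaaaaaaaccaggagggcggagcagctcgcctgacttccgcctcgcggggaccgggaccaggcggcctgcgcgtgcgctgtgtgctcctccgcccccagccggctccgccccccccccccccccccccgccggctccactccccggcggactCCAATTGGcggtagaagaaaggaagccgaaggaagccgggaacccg
Psmd11: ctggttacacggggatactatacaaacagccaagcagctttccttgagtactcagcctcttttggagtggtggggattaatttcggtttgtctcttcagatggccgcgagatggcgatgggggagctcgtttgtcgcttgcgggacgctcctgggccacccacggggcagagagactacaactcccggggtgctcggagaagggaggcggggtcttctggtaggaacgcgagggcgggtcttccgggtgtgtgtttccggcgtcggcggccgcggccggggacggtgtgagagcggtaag

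Of the 45 members, 37 had a promoter in this collection, with 40 start sites in all. The antioxidant response element TGACNNNGC, the general form of the site that NRF1 and NRF2 bind, was found on either strand in 15% of the 40 member promoters and in 12.4% of 32851 promoters of the same length. The stricter form TGACTCAGC, which is contained in the general one, was in none of them and in 0.454% of all. CCAAT boxes (CCAAT) were in 30% against 37.4%, E-boxes (CACGTG), the sites of the clock's activators, in 10% against 7.15%, the REV-ERB half-site TAGGTCA in 5% against 2.61%, and D-boxes (TTATGTAA) in none against 0.938%. The interferon-stimulated core GAAANNGAA, added after the expression values had been seen, was in 17.5% against 8.56%. The E-box genes were Psma4, Psmb10, Psmd9 and Psme3, and the half-site genes were Psmc2 and Psmd6. The interferon-stimulated core was in Psmb3, Psmb4, Psmc2, Psmd4, Psmd9, Psme1 and Psmg4, and not in Psmb10 or Psme2. A match is a string of letters and does not show a bound site.

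Levels per kb of transcript ordered the members of each ring. In control liver fed ad libitum the highest alpha-ring gene was Psma6 (median 106 CPM per kb, lowest 92.7 and highest 142 of 24 libraries), with Psma4 at 101 and Psma2 at 76.1. Psma6 and Psma4 overlapped. Psma8, known as the testis-specific alpha subunit, was at 0.354 CPM per kb, with 0 as its lowest library. Among beta subunits Psmb6, Psmb4 and Psmb7 had medians of 105, 104 and 102 CPM per kb and did not differ beyond their spread. Psmb5, which carries the chymotrypsin-like site, was lowest at 57.4 CPM per kb (31.3 to 84.8). Psmb10, the counterpart of Psmb7 in the immunoproteasome, was at 17.9 CPM per kb, and its range of 11.6 to 28.4 lay below that of every constitutive beta gene.

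The regulatory particle was flatter. ATPases ran from Psmc1 at 79.0 to Psmc6 at 48.9 CPM per kb, base subunits from Psmd2 at 68.2 to the scaffold Psmd1 at 42.9, and lid subunits from Psmd8 at 64.9 to Psmd11 at 35.4. Among activators Psme1 (87.1 CPM per kb) stood above Psme3 (27.1), Psme4 (24.99) and its own partner Psme2 (18.3). The assembly chaperones and the inhibitor Psmf1 (8.63) were low: Psmg1 was at 15.5, Psmg2 at 12.2, Psmg3 at 15.4, Psmg4 at 8.26, Psmd5 at 17.3, Psmd9 at 14.1 and Psmd10 at 6.05 CPM per kb. In reverse-phase-fed controls Psmb7 was the highest beta gene (195 CPM per kb) and Psmb2 the lowest (84.9). In the base Psmd4 (81.2) stood above Psmd2 (63.9), with overlapping ranges, and among activators Psme2 (27.9) stood beside Psme3 (25.03) and above Psme4 (17.7), again with overlap. Psma6, Psmc1 and Psmd8 led their rings there too, with 115, 104 and 76.8 CPM per kb. In endothelial cells Psma2, Psmb4, Psmc3, Psmd2 and Psmd8 led their rings, and in Kupffer cells Psma6, Psmb2, Psmc1, Psmd2 and Psmd8 did.

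Psmb10, the activator genes Psme1 and Psme2, the alpha subunit Psma5 and the scaffold Psmd1 were lower in knockout under both feeding schedules, and the lid gene Psmd11 was higher under both. With edgeR's quasi-likelihood test on the fitted daily mean (Benjamini-Hochberg adjusted p under 0.05 over all genes tested), 7 of 45 members were called with ad libitum feeding, against 27.2% of all 12534 genes: 2 were higher and 5 lower, against 13.7% and 13.5% of all genes. With reverse-phase feeding 11 of 45 were called, against 26.9% of 13810: 2 were higher and 9 lower, against 12.7% and 14.2%. The members' shares were 15.6% and 24.4%. The members' median log2 difference was -0.01 ad libitum and -0.07 in reverse phase, and that of all genes was 0.00 and -0.01. Without 1 ad libitum knockout library (ZT 16, replicate 3), or with time as a factor, 11 were called ad libitum. The lists shared 6 members, all with the same direction, which is 85.7% of the ad libitum list and 54.5% of the reverse-phase list. Over all genes tested in both, the shared calls were 66% and 63.3% of the lists, and 99.9% of them had the same direction.

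Psmb10 (mm9, chr8:108459628-108462292, minus strand) ranged from 14.7 through a median of 22.6 to 35.8 CPM in the 24 ad libitum control libraries and from 9.33 through 16.8 to 25.4 CPM in the 24 knockout libraries. At ZT 7 the 3 controls read 35.8, 26.3 and 27.1 CPM and the 3 knockout libraries 19.4, 19.7 and 15.9 CPM. The control mean was the higher at 8 of 8 times, and every control lay above every knockout library at 4 of 8. The log2 difference, knockout minus control, was -0.48 (SE 0.066, edgeR adjusted p = 7.22e-08). In reverse-phase-fed liver the control libraries ran from 19.7 through 30.6 to 44.4 CPM and the knockout libraries from 15.1 through 20.5 to 36.0 CPM, with full separation at 5 of 8 times. At ZT 7 the controls read 44.4, 43.5 and 42.3 CPM and the knockout libraries 31.8, 25.7 and 25.6 CPM. The difference was -0.55 (SE 0.069, adjusted p = 9.77e-09, edgeR).

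Psme1 (mm9, chr14:56197331-56200364, plus strand) encodes the alpha subunit of the PA28 activator, and Psme2 (chr14:56206277-56209858, minus strand) is its neighbour. Ad libitum its level ran from 62.5 through 84.0 to 112 CPM in controls and from 54.4 through 67.2 to 91.8 CPM in knockout. Controls lay wholly above knockout at 5 of 8 times, and the difference was -0.28 (SE 0.048, edgeR adjusted p = 6.51e-06). In reverse phase it ran from 62.8 through 98.3 to 137 CPM in controls and from 43.2 through 64.8 to 100 CPM in knockout, separated at 6 of 8 times, with a difference of -0.54 (SE 0.070, edgeR adjusted p = 2.92e-08). At ZT 4 of that schedule the controls read 78.1, 62.8 and 76.2 CPM and the knockout libraries 44.8, 43.2 and 47.4 CPM. Every control lay above every knockout library there, though the controls were under their own median. Its partner Psme2 was lower too, at 16.9 ± 2.63 CPM in controls and 14.5 ± 1.89 CPM in knockout ad libitum (SD, n = 24 each; -0.23, edgeR adjusted p = 0.00214) and at 23.7 ± 7.21 against 19.7 ± 5.11 CPM in reverse phase (-0.26, edgeR adjusted p = 0.0132). The ratio of Psme2 to Psme1 per kb was 0.225 in controls and 0.234 in knockout ad libitum, and 0.264 and 0.323 in reverse phase. The other activators were not called: Psme3 differed by -0.01 and -0.06 and Psme4 by 0.07 and -0.04 (ad libitum and reverse phase, log2).

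**Figure D1:**
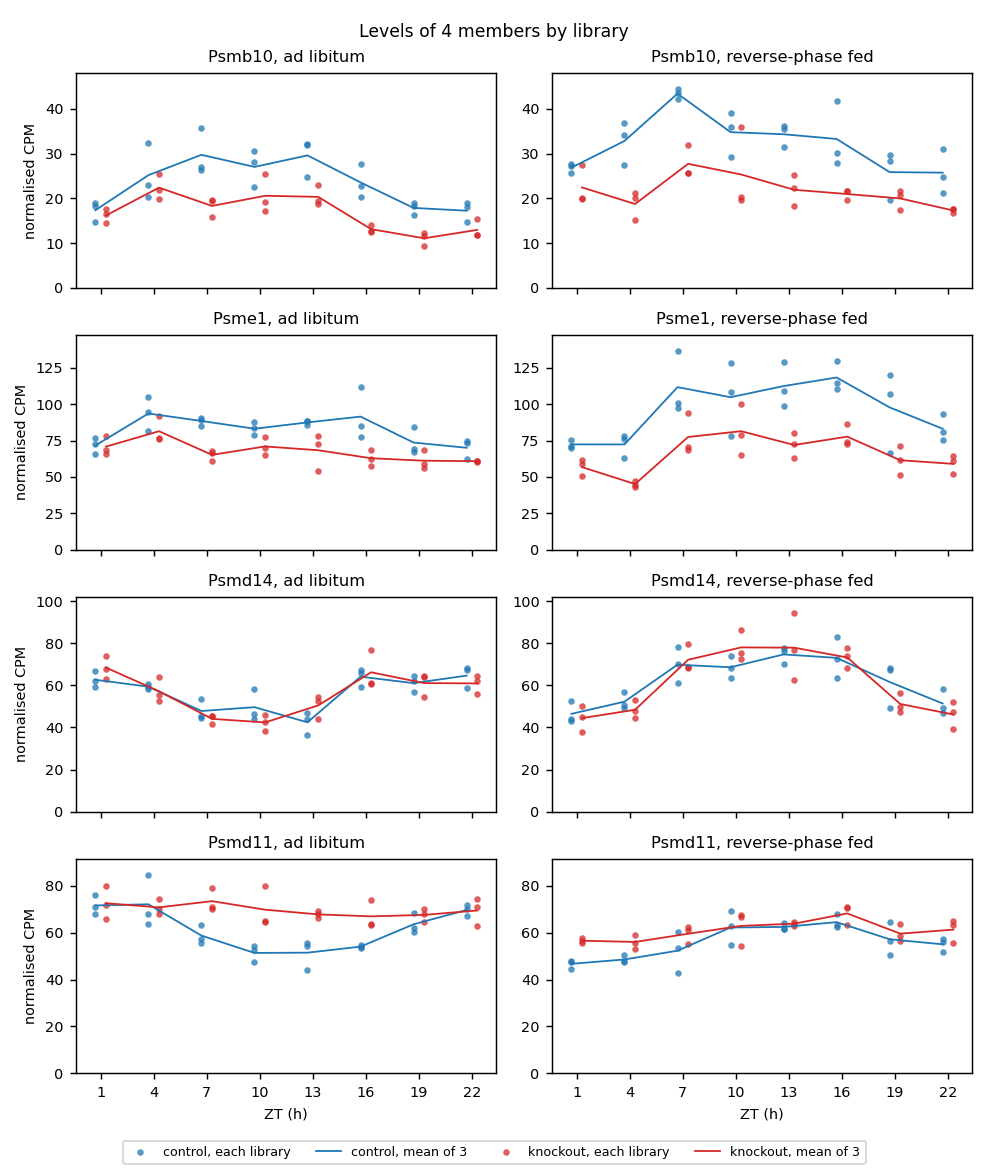
Levels of Psmb10, Psme1, Psmd14 and Psmd11 in each liver library (points) by Zeitgeber time in hours, with the mean of 3 libraries as a line (control blue, knockout red; vertical axis, TMM-normalised CPM from 0). Psmb10 and Psme1 are lower in knockout under both schedules, while the Psmd14 lines of the genotypes run together and its daily peak lies at night ad libitum and near ZT 12 in reverse phase.

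The plot of these 4 genes by library shows lower means in knockout for Psmb10 at all 8 ad libitum times, with overlap of single libraries at 4 of them, while Psmd14 differed by -0.01 and -0.04 and was not called. Psmd11 (mm9, chr11:80242117-80285635, plus strand), a lid scaffold, went the other way. Ad libitum the controls ran from 44.1 through 61.2 to 84.6 CPM and the knockout libraries from 62.9 through 69.6 to 80.0 CPM, and at 4 of 8 times every knockout library lay above every control. Its difference was 0.19 (SE 0.034, edgeR adjusted p = 8.98e-06) ad libitum and 0.13 (SE 0.034, edgeR adjusted p = 0.00400) in reverse phase. Psmd8, another lid subunit, was at 97.8 ± 7.54 CPM in ad libitum controls and 110 ± 8.85 CPM in knockout (SD, n = 24 each; 0.17, edgeR adjusted p = 9.78e-05). All its knockout libraries lay above the controls at 7 of 8 times. In reverse phase it differed by 0.11 and was not called (edgeR adjusted p = 0.0918).

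In the rings the called changes were small. Of 8 alpha-ring genes 1 was called ad libitum and 3 in reverse phase, all lower, against 13.5% and 14.2% of all genes. Psma5 fell by 0.15 and 0.21 on the log2 scale, and in reverse phase Psma6 and Psma3 differed by -0.15 and -0.13. None of the 7 constitutive beta genes was called in either schedule, nor was any of the 6 ATPases. Of all genes 27.2% and 26.9% were called, and counts of rings this small were not tested against those shares. Psmb5 differed by 0.11 (SE 0.1196) and -0.05 (SE 0.148), the widest errors in the beta ring. In the base, Psmd1 fell by 0.14 and 0.16, and the ubiquitin receptor Psmd4 differed by 0.02 and -0.02. Among chaperones Psmd10 and Psmd5 were lower in reverse phase (-0.15 and -0.10) and Psmg2, a core assembly chaperone, was higher (0.19, edgeR adjusted p = 0.00978). Psmg1, Psmg3, Psmg4, Psmd9 and Psmf1 were called under neither schedule, and Psma8 differed by 0.40 with an SE of 0.265. Psma8 was near the floor, with ad libitum medians of 0.595 CPM in controls and 0.720 CPM in knockout. Psma6 lost its call without filtering or when any of 24 of 48 single libraries was left out, and Psmd5 lost its call when any of 36 of 48 was.

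**Figure D2:**
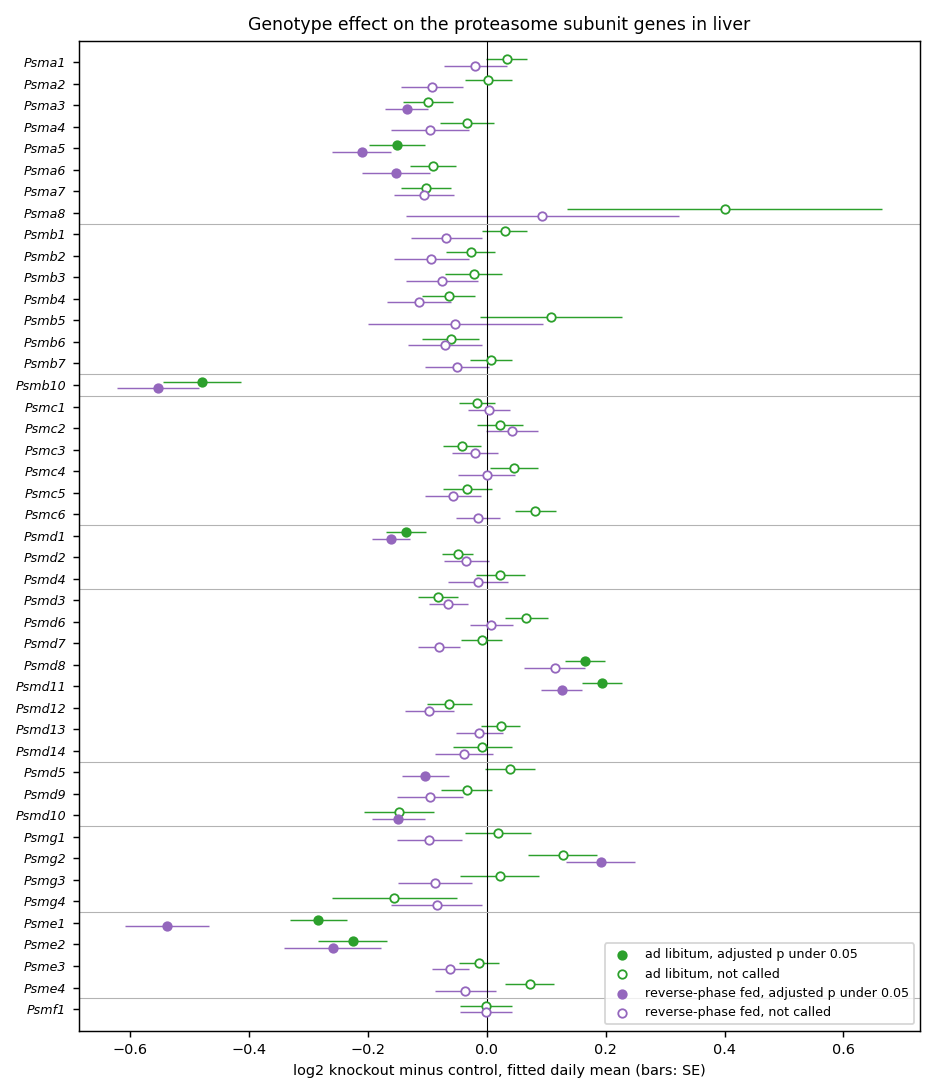
Log2 difference of each member, knockout minus control, in the fitted daily mean of liver (points; bars, SE; green ad libitum, purple reverse phase; filled where the edgeR adjusted p was under 0.05). Lines divide the rings and roles: Psmb10 and Psme1 lie farthest to the left under both schedules, and the beta ring and the ATPases hold no filled point.

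The map of genotype differences shows Psmb10 and Psme1 farthest below 0. Psmb8, an immunoproteasome subunit that the selection rule leaves out, fell by 0.37 ad libitum (edgeR adjusted p = 0.000492) and by 0.56 in reverse phase (adjusted p = 4.39e-08, edgeR). Psmb9 differed by -0.05 and -0.11 and was not called. The 19 listed antigen-processing and interferon genes include these 5. Of the 19, 12 were called ad libitum and 9 in reverse phase, against 27.2% and 26.9% of all genes. Of the 12, 6 were higher and 6 lower, and of the 9, 4 were higher and 5 lower. Among those higher under both schedules were Irf9, Ifit1 and Ifit3, genes of the interferon response, with Ifit1 at 0.69 and 0.56 and Ifit3 at 0.56 and 0.52. Tapbp, which loads peptides on MHC class I, was lower (-0.19 and -0.26), beside the 4 proteasome genes.

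Of 13 listed regulators of proteasome genes 6 were called under each schedule, all lower, against 13.5% and 14.2% of all genes, and 7 were not called. Nfe2l1 was at 136 ± 12.3 CPM in ad libitum controls and 115 ± 11.7 CPM in knockout (SD, n = 24 each), a difference of -0.24 (edgeR adjusted p = 1.81e-06), and fell by 0.36 in reverse phase. Maff, a small MAF partner of those factors, fell by 1.11 and 1.23 from levels of 3.17 and 6.09 CPM. Nfe2l2 (NRF2) differed by 0.15 and -0.07 and was not called. Of 26 tested proteasome-related genes outside the rule 9 were called ad libitum (3 higher, 6 lower) and 7 in reverse phase (1 higher, 6 lower), Psmb8 leading both. The called share of all genes was 27.2% ad libitum and 26.9% in reverse phase. The core assembly factor Pomp was lower in both (-0.12 and -0.20), and the ubiquitin receptor Adrm1 was lower ad libitum (-0.15) and not called in reverse phase (-0.13). Of 7 NRF2 targets outside the proteasome 1 and 2 were called, with Srxn1 higher in both. Of 8 heat shock genes 1 was called under each schedule, Hspb1, which was lower (-0.85 and -1.09). For these lists too, the share of all genes was 27.2% and 26.9%.

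In whole liver, fewer cells of a type and less RNA per cell cannot be told apart. Hepatocyte markers summed to 13.2% of counts in controls (10.8% to 15.5%) and 11.8% in knockout (9.67% to 13.8%) ad libitum. In reverse phase they summed to 11.3% (8.90% to 13.01%) and 10.1% (8.50% to 11.8%). Alb alone took 9.83% and 7.75% ad libitum and 8.21% and 6.32% in reverse phase (controls and knockout). The medians of Apoa1, Ttr, Cps1 and Ass1 were higher in knockout under both schedules, and that of Serpina1a was lower. Those of Apob and Tat were higher in knockout ad libitum and lower in reverse phase. Kupffer markers summed to 0.0253% of counts in controls and 0.0252% in knockout ad libitum and to 0.0259% and 0.0263% in reverse phase, and 0 of their 8 tested genes was called. The libraries overlapped, from 0.0159% to 0.0389% and from 0.0153% to 0.0410% ad libitum and from 0.0156% to 0.0370% and from 0.0159% to 0.0411% in reverse phase. Endothelial markers rose from 0.0126% to 0.0159% and from 0.0137% to 0.0165% (7 and 4 of 8 called, all higher), with libraries from 0.00684% to 0.0192% and from 0.00906% to 0.0214% ad libitum and from 0.00878% to 0.0201% and from 0.0104% to 0.0233% in reverse phase. Stellate-cell markers rose from 0.0175% to 0.0244% and from 0.0183% to 0.0241% (6 and 4 of 6, all higher), with libraries from 0.00903% to 0.0263% and from 0.0140% to 0.0338% ad libitum and from 0.0137% to 0.0235% and from 0.0189% to 0.0312% in reverse phase. Of all genes 27.2% were called ad libitum and 26.9% in reverse phase, with 13.7% and 12.7% higher. The part of these markers in the result was not tested. Lymphocyte markers stayed at or under 0.000687% in every liver library, and the neutrophil gene Ly6g had a median of 0.

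The genotype difference did not depend detectably on the schedule. In 1 fit over both liver series, 0 of 45 members had a genotype effect that differed between schedules, against 0.207% of 13535 genes (0.0887% higher, 0.118% lower; edgeR). DESeq2 also called 0. The member with the smallest p was Psme1, with a difference of -0.25 (reverse phase minus ad libitum, log2; SE 0.090, edgeR adjusted p = 0.368). With a covariate for each library's length trend, added after seeing the data, 1 was called, Psme1. Schedule and library series cannot be told apart here, since each schedule was deposited as a table of its own.

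In ad libitum controls several regulatory-particle genes had a called daily rhythm with a peak late in the night. A 24-hour cosine was called in 19 of 45 members, against 48.1% of all genes (edgeR), and in 10 of 17 regulatory but 5 of 16 core genes. The median peak-to-trough range was 1.18-fold for members and 1.33-fold for all genes. Of the 10 regulatory genes 8 peaked between ZT 18 and 24, a window chosen after the values were seen, in which 28.4% of all rhythmic genes peaked. They included Psmd14 (peak ZT 22.1, SE 0.75 h, range 1.42-fold), Psmd1 (ZT 22.4, 1.37-fold) and Psmd7 (ZT 21.9, 1.26-fold). No constitutive beta gene was called, and the alpha-ring genes Psma3, Psma1, Psma5 and Psma7 peaked at ZT 22.3, 2.17, 3.57 and 6.36. The share in the regulatory particle was not tested against that in the core. It was 13 of 17 against 9 of 16 with a covariate for each library's length trend, and 11 of 17 against 7 of 16 without the libraries that stood apart, both added after seeing the data. Of all genes 6077 of 12534 and 5736 of 12698 were called in these fits.

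Psmd11 had the rhythm with the smallest p. Its controls fell from 67.8, 70.7 and 76.1 CPM at ZT 1 to 54.1, 52.6 and 47.3 CPM at ZT 10, so that the early libraries were all above the late ones. The range was 1.46-fold with a peak at ZT 0.551 (SE 0.47 h, edgeR adjusted p = 2.52e-08). Psmb10 peaked at ZT 9.80 with a 1.81-fold range, the widest of the members called. The assembly chaperone Psmd9 peaked at ZT 11.4 (1.47-fold) and the nuclear activator Psme3 at ZT 16.2 (1.34-fold). Psme3 read 62.8, 57.3 and 59.2 CPM at ZT 7 and 85.9, 82.2 and 86.7 CPM at ZT 16, without overlap.

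In ad libitum knockout liver the cosine was called in 12 of 45 members, against 44.1% of all genes (edgeR), with 3 of 16 core and 5 of 17 regulatory genes. Psmb10 (1.83-fold, peak ZT 7.58), Psmd14 (1.52-fold, ZT 21.2) and Psme3 (1.31-fold, ZT 14.9) were called again. The smaller count does not show lost rhythms: the test of the difference between genotypes called 1 member, Psmd11, against 3.31% of all genes. Its range went from 1.46-fold in controls to 1.09-fold in knockout (edgeR adjusted p = 0.00187 for the difference). At ZT 10 the knockout libraries read 79.8, 64.5 and 65.0 CPM, all above the controls, and at ZT 1 they read 71.6, 65.9 and 80.0 CPM and overlapped with them. With time as a factor 0 were called (adjusted p = 0.0855 for Psmd11). Without 1 library that stood apart (control, ZT 16, replicate 2) 2 were.

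Under reverse-phase feeding the members moved together in the middle of the cycle. The cosine was called in 32 of 45 members in controls, against 41.2% of all genes, and in 37 of 45 in knockout, against 36.8% (edgeR). These were 13 of 16 core and 13 of 17 regulatory genes in controls, and 14 and 17 in knockout. Of the 32, 28 peaked between ZT 10 and 16, where 28% of all rhythmic genes peaked, and of the 37, 32 did, against 26.4%. This window too was chosen after the values were seen. The median range of the core genes was 1.38-fold in controls and 1.46-fold in knockout and that of the regulatory genes was 1.23-fold and 1.27-fold. All genes had 1.33-fold and 1.31-fold.

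Psmd14 (mm9, chr2:61549751-61638433, plus strand) had the rhythm with the smallest p in both genotypes. In controls it read 44.0, 43.0 and 52.5 CPM at ZT 1 and 76.1, 77.7 and 70.4 CPM at ZT 13, a rise without overlap. Knockout libraries read 50.2, 45.0 and 38.1 CPM at ZT 1 and 94.5, 62.6 and 76.7 CPM at ZT 13. The peak was at ZT 12.6 (SE 0.57 h) with a range of 1.58-fold in controls (edgeR adjusted p = 3.56e-06) and at ZT 11.7 (SE 0.40 h) with 1.91-fold in knockout (edgeR adjusted p = 2.47e-09). In the core, Psma4 (peak ZT 12.8, 1.55-fold), Psmb3 (ZT 13.3, 1.54-fold) and Psmb7 (ZT 14.1, 1.40-fold) peaked with it in controls. Psmb7, which carries the trypsin-like site, read 145, 133 and 148 CPM at ZT 1 and 215, 234 and 191 CPM at ZT 13. The activators Psme1 (ZT 13.1, 1.61-fold) and Psme2 (ZT 12.5, 1.86-fold) did too.

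A few members did not join. Psme3 peaked at ZT 5.75 in controls and ZT 6.71 in knockout, Psmd9 at ZT 19.6 and 18.3, Psmb10 at ZT 9.20 and 9.02, and the inhibitor Psmf1 at ZT 18.2 in controls (edgeR adjusted p = 0.00900). Psmb5 was not called in either genotype (1.35-fold and 1.73-fold, edgeR adjusted p = 0.431 and 0.0835). None of the 45 members had a rhythm that differed between genotypes, against 1.48% of all genes (edgeR). DESeq2 also called 0, and 0 members had an unadjusted p under 0.05.

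**Figure D3:**
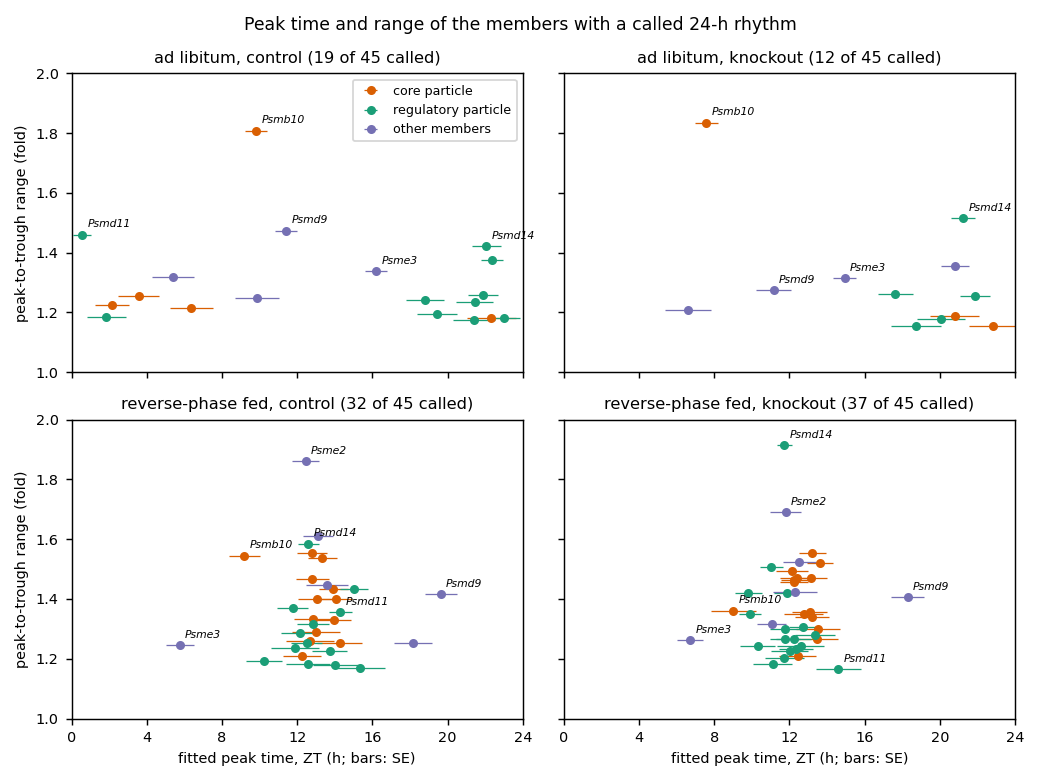
Fitted peak time (horizontal, ZT in hours; bars, SE) and peak-to-trough range (vertical, fold, from 1) of the members whose 24-hour rhythm was called, for each schedule and genotype, coloured by particle. Under reverse-phase feeding most points gather between ZT 10 and 16 and under ad libitum feeding the regulatory particle (green) gathers between ZT 18 and 24, while Psme3 and Psmd9 lie elsewhere.

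The plot of peak times shows this gathering and the exceptions. The reverse-phase libraries also differed in how expression followed transcript length, a trend that moved with time. Its slope averaged 0.0887 and 0.0599 at ZT 1 and 4 and -0.0810 and -0.0723 at ZT 7 and 13 in controls, and 0.128 at ZT 4 in knockout; its part in the result was not tested. With each library's slope as a covariate, added after seeing the data, 22 of 45 members were called in controls (8 of 16 core, 8 of 17 regulatory). Of all 13810 genes 5603 were called. Of the 22 members, 16 peaked between ZT 10 and 16, against 19.4% of all rhythmic genes. In knockout 35 of 45 were called, against 5689 of 13810 genes, with 31 in that window against 21.7%. The median core range was then 1.16-fold in controls and 1.24-fold in knockout, and the median regulatory range 1.13-fold and 1.21-fold. All genes had 1.27-fold and 1.26-fold. In ad libitum liver the covariate gave 26 and 18 of 45 members in controls and knockout, against 6077 and 6065 of 12534 genes.

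**Figure D4:**
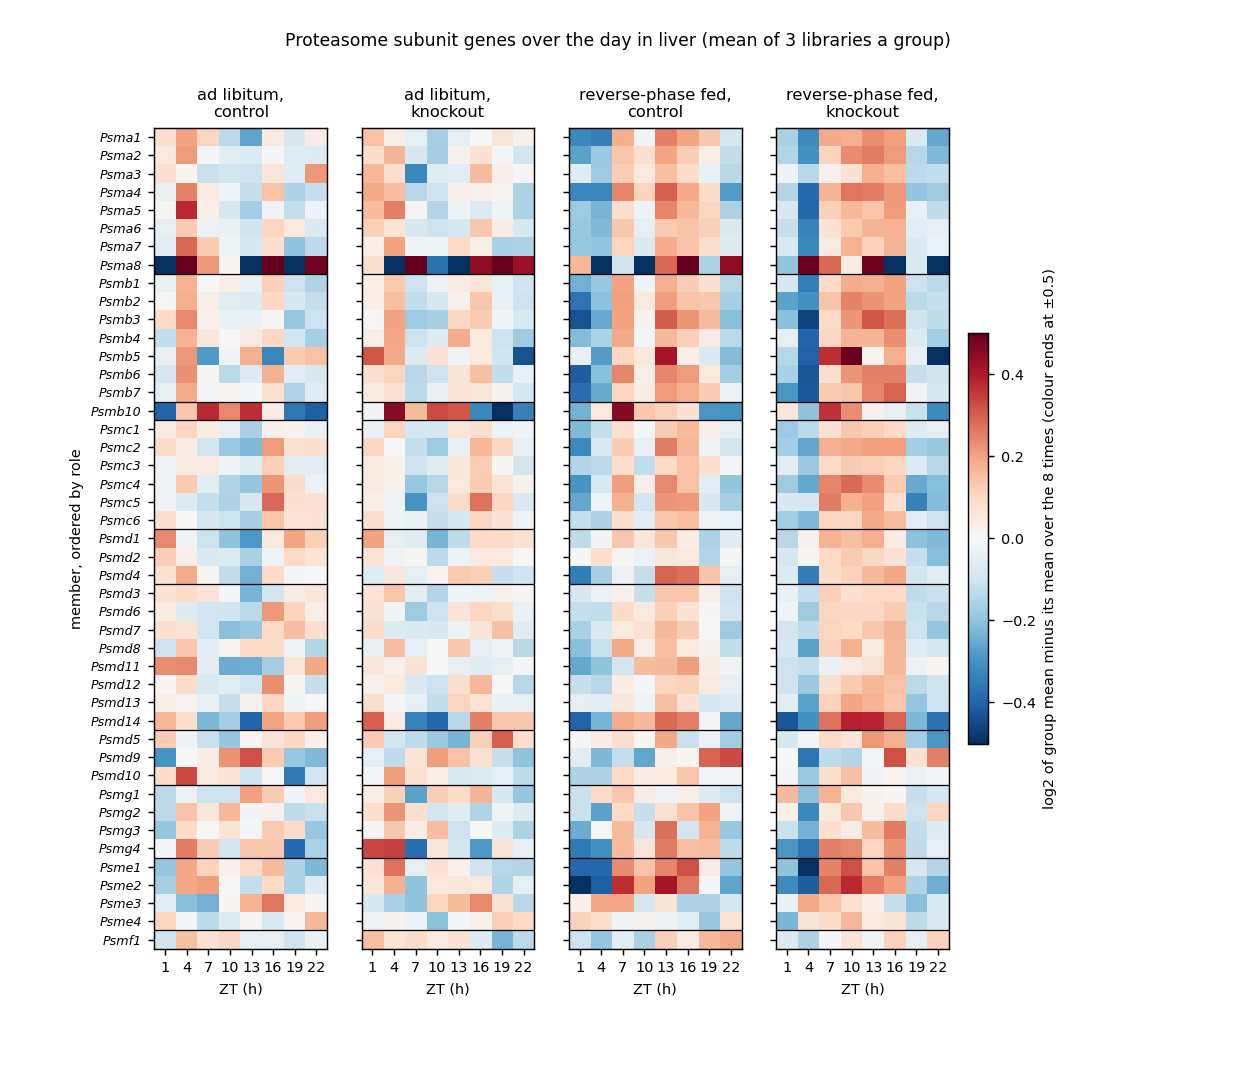
Daily course of the 45 members in liver, by schedule and genotype: each cell is the log2 of the mean of 3 libraries minus the gene's mean over the 8 times (red above, blue below, colours end at 0.5; columns, ZT in hours; rows ordered by role with lines between roles). In the reverse-phase panels most rows are blue at ZT 1 and 4 and red from ZT 7 to 16, and the ad libitum panels lack that common course.

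The map of daily courses shows a common course of most members in reverse phase. The core genes summed to 1268 ± 83.4 CPM at ZT 1 and 1785 ± 155 CPM at ZT 13 in controls (SD, n = 3), and the regulatory genes to 1585 ± 49.9 and 1991 ± 58.4 CPM. Between ZT 7 and 13 the control means dipped. The core sum was 1730 ± 284 CPM at ZT 7 and 1551 ± 295 CPM at ZT 10, and the regulatory sum 1890 ± 60.8 and 1771 ± 58.9 CPM. The ratio of the core sum to the regulatory sum was 0.776 ± 0.0219 at ZT 4 and 0.914 ± 0.128 at ZT 7, the lowest and highest group means of reverse-phase controls. In ad libitum controls it was highest at ZT 4, at 0.775 ± 0.0567, and lowest at ZT 19, at 0.633 ± 0.0147, and the 3 libraries at ZT 4 (0.732 to 0.839) lay above those at ZT 19 (0.617 to 0.644). Knockout ratios ran from 0.647 at ZT 22 to 0.742 at ZT 4 ad libitum, and from 0.709 at ZT 4 to 0.865 at ZT 16 in reverse phase. These sums were not tested. Core transcripts are mostly shorter than regulatory ones, and the length slope also moved with time. In controls it averaged -0.0665 at ZT 4 and 0.0118 at ZT 19 ad libitum, and 0.0599 at ZT 4 and -0.0810 at ZT 7 in reverse phase. The highest ad libitum control slopes were at ZT 1 and 22 (0.0490 and 0.0495), where the ratio was 0.655 and 0.651. The part of the length trend in the ratios was not tested.

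The schedules gave different daily courses in most members. In the joint fit the 24-hour terms differed between schedules in 30 of 45 members in controls, against 53.6% of 13535 genes, and in 35 of 45 in knockout, against 49% (edgeR). In controls Psmd11 moved from ZT 0.533 to 14.1 (edgeR adjusted p = 1.59e-15), Psmd1 from ZT 22.3 to 10.6, Psmd14 from ZT 22.04 to 12.6 and Psme3 from ZT 16.2 to 6.31. In knockout Psmd14 moved from ZT 21.2 to 11.8, Psmd1 from ZT 21.8 to 10.1, Psme3 from ZT 14.9 to 7.02 and Psmd5 from ZT 20.8 to 11.2. Psmb10 peaked at ZT 9.82 and 9.39 in controls, and its course was not called different (edgeR adjusted p = 0.627). Leaving out the libraries numbered 3 throughout lowered the knockout count to 19.

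Rhythms were called under both schedules in 16 members in controls, which is 84.2% of the ad libitum list and 50% of the reverse-phase list, against 54.7% and 58.2% over all genes. Of these 16, 9 had peaks 8 to 16 hours apart (56.2%, and 74.7% of all genes rhythmic under both). In knockout 11 members were called under both (91.7% and 29.7% of the lists, against 50.3% and 55.2% over all genes), 6 of them 8 to 16 hours apart (54.5%, and 69% of all).

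Terms with a 12-hour period were called in 4 members in ad libitum controls (Psmc4, Psmd12, Psmb6 and Psma7), against 3.26% of all genes, and in 5 in knockout (Psmb4, Psmd12, Psma2, Psmb3 and Psmb2), against 3.05% (edgeR). The ATPase gene Psmc4 read 67.7, 66.1 and 68.6 CPM at ZT 10 and 82.7, 94.7 and 84.1 CPM at ZT 16 in controls. Without the control library of ZT 16 numbered 2 the counts were 0 and 10, and with the length covariate 0 and 0. Of 48 fits that each left out 1 library, 43 in controls and 30 in knockout gave a count within 1.5 times. In reverse phase 0 and 0 were called, against 2.53% and 2.01% of all genes, with 2 and 1 members at an unadjusted p under 0.05 (edgeR). DESeq2 also called 0 and 0.

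In isolated endothelial cells none of the 45 members was called for a genotype difference in the daily mean by limma on log2(value + 1), and 3 were called for a difference in rhythm. The background for the daily mean was 0.0319% of 12523 genes (0.024% higher, 0.00799% lower), and 0 members had an unadjusted p under 0.05. The smallest p was that of Psma7 (-0.13, SE 0.071, limma adjusted p = 0.927). Psmb10 ran from 71.4 through 96.6 to 188 in controls and from 60.0 through 93.8 to 169 in knockout (deposited signal, n = 12 each), and the ranges overlapped. A rhythm was called in 1 member in controls, against 6.13% of all genes, and in 4 in knockout, against 13.2% (limma). A difference in rhythm between genotypes was called in 3, against 2.04%.

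The 3 were Psmb6, which carries the caspase-like site, the ATPase gene Psmc3 and the nuclear activator Psme4. Psmb6 read 180, 158 and 216 at ZT 10 in controls and 112, 143 and 111 in knockout, and at ZT 16 it read 141, 114 and 125 in controls and 171, 165 and 133 in knockout. Controls were the higher at ZT 10 and did not overlap there. Its peak was at ZT 8.38 with 1.59-fold in controls and at ZT 18.5 with 1.34-fold in knockout (limma adjusted p = 0.0357 for the difference). Psmc3 peaked at ZT 9.31 and 17.8 (limma adjusted p = 0.0441) and Psme4 at ZT 20.9 and 6.85 (limma adjusted p = 0.0496). In knockout Psma2 (1.46-fold, ZT 9.24), Psmc3, Psmb10 and Psme4 were the called rhythms. The count of rhythms in knockout went from 4 to 9 without 1 library (knockout, ZT 22, replicate 1) and was 1 without any of 5 others. Leaving out any of 18 of the 24 libraries moved the count of 3 by more than 1.5 times, to between 0 and 6, and without the 2 libraries that stood apart it was 1.

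In Kupffer cells no member was called for any comparison by limma: the background was 0.0244% for genotype (0.0163% higher, 0.00815% lower), 1.96% and 1.81% for rhythm in controls and knockout, and 0% for its difference, over 12270 genes. At an unadjusted p under 0.05 there were 2, 3, 8 and 1 members. The smallest genotype p was that of Psme2, at 47.2 through 66.5 to 93.6 in controls and 42.2 through 52.3 to 76.5 in knockout (deposited signal, n = 12 each). Its ranges overlapped, and its difference was -0.34 (SE 0.0996, limma adjusted p = 0.9997). The smallest rhythm p belonged to Psma7 in controls (limma adjusted p = 0.161) and to Psme1 in knockout (limma adjusted p = 0.121), and for the difference to Psmb5. Leaving out 1 knockout library (ZT 22, replicate 2) gave 2 called rhythms in knockout.

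The balance between immune-type and constitutive subunits, taken within each library per kb, differed in value between sample types. Psmb10 over Psmb7 averaged 0.181 ± 0.0430 in ad libitum control liver (SD, n = 24) and 0.130 ± 0.0336 in knockout, and 0.134 ± 0.0301 and 0.0941 ± 0.0226 in reverse phase. It was 0.420 ± 0.132 and 0.443 ± 0.194 in endothelial cells (n = 12 each) and 0.585 ± 0.0683 and 0.578 ± 0.0739 in Kupffer cells. In controls the lowest endothelial library (0.267) lay just above the highest ad libitum liver library (0.266). Psmb8 over Psmb5 averaged 0.421 ± 0.145 in ad libitum control liver, 5.01 ± 2.38 in endothelial and 6.10 ± 1.63 in Kupffer controls. Psmb9 over Psmb6 averaged 0.108 ± 0.029, 0.697 ± 0.109 and 1.47 ± 0.243. In knockout liver Psmb8 over Psmb5 was 0.302 ± 0.12 ad libitum and 0.217 ± 0.0882 in reverse phase, where controls had 0.312 ± 0.127. Psme1 over Psme3 was 3.20 and 2.65 in ad libitum control and knockout liver, 3.95 and 2.82 in reverse phase, 4.12 and 4.27 in endothelial cells and 5.54 and 5.35 in Kupffer cells. Psma8 over Psma7 was at most 0.0112 as a group mean in liver, 0.108 in endothelial and 0.0576 in Kupffer controls. The cell series were quantile-normalised within their own tables, so differences between sample types were not tested.

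**Figure D5:**
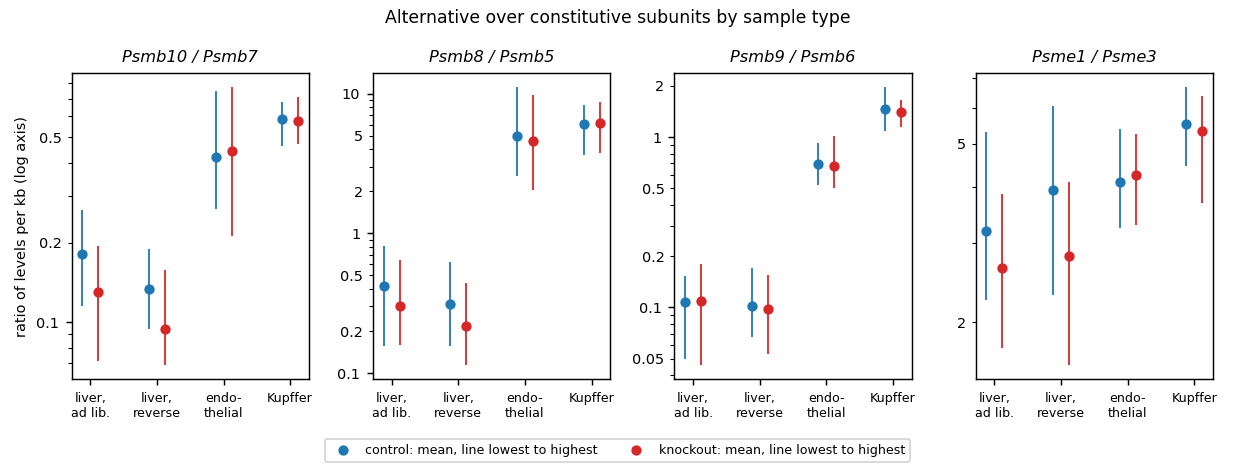
Ratios of per-kb levels within each library, on log axes, for 3 immune-type over constitutive beta subunits and for Psme1 over Psme3, by sample type and genotype (points, means; lines, lowest to highest library; control blue, knockout red). The beta-subunit ratios are lowest in liver and highest in Kupffer cells, and the knockout means lie under the control means in liver for Psmb10, Psmb8 and Psme1.

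The plot of ratios shows that the libraries of the genotypes overlapped for all 4 ratios, in liver under both schedules and in endothelial and Kupffer cells. The libraries of these cell series held some hepatocyte RNA, with Alb between 0.135% and 2.40% of the endothelial and between 0.0738% and 1.06% of the Kupffer signal. In control endothelial libraries Kupffer markers averaged 0.266% of the signal (0.0912% to 0.403%) and stellate markers 0.295% (0.182% to 0.384%). In control Kupffer libraries endothelial markers averaged 0.217% (0.169% to 0.264%). Cdh5 was the largest part of that sum, with a median signal of 6308 there and 3719 in control endothelial libraries. Every other listed endothelial marker had a lower median there, such as Kdr (329 against 14520) and Clec4g (177 against 8408). The sum is therefore no measure of endothelial RNA in the Kupffer libraries. The part of RNA from other cell types in the ratios was not tested.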

How the data were processed

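RNA-seq libraries of mouse liver, endothelial cells and Kupffer cells were read from 4 tables of transcripts, with columns named GFP (read here as control) and CRE (read as knockout). Per the submitters' processing notes, STAR, HOMER and the build mm9 were used. The authors' liver values are estimated counts that need not be whole and were rounded here. The endothelial and Kupffer values are a deposited signal in which all columns of a table share 1 set of sorted values, so a count test could not be used.

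For each symbol the transcript with the largest mean was kept, and gene lengths are those of that transcript. Liver counts were filtered with filterByExpr, scaled by TMM and tested with edgeR 4.0.16 (robust quasi-likelihood). Cell signals were tested with limma 3.58.1 (trend, robust) on log2(value + 1) for genes at 10 or more in 3 or more libraries. Differences of such signals are on the log2(value + 1) scale and understate those of low genes. Each genotype had its own mean and 24-hour cosine terms, so that the genotype effect is the difference of daily means, a rhythm is called from both cosine terms together, and its range is the fitted peak over the trough. The 12-hour terms were added to that model, and 1 further fit held both liver series. P-values were adjusted by Benjamini-Hochberg over all genes tested, at 0.05. Both fits were also run on simulated data, in which noise was drawn separately for each gene and no length trend was put in. Those runs cannot speak to the length trend seen here. A library stood apart when its length trend or spread was over 3 scaled median absolute deviations from its table's median, or Rn45s took over 5% of a liver library.

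The members and lists were chosen with earlier results of these data known. Named were, for each comparison, up to 3 called members in each direction with the largest difference, the 4 rhythms with the smallest p, the member with the smallest p where none was called, the highest and lowest level of each ring, the activators, inhibitor, chaperones and Nfe2l1, Nfe2l2, Psmb8, Psmb9, Pomp and Adrm1. Others were named after their values were seen. Alternatives were DESeq2 1.42.0, its size factors, other filters, pseudocounts and transcripts, time as a factor, a replicate block, leaving out libraries and a length covariate.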

Additional observations from a re-analysis of the deposited data

Results flagged for a closer look

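Rhythms that differed between genotypes by a test of the difference itself were found for 1 member in ad libitum liver and 3 in endothelial cells. In ad libitum liver this was Psmd11 (edgeR adjusted p = 0.00187), with a range of 1.46-fold in controls and 1.09-fold in knockout. In endothelial cells these were Psmb6 (limma adjusted p = 0.0357), Psmc3 (limma adjusted p = 0.0441) and Psme4 (limma adjusted p = 0.0496). Psmb6 lost this call in 4 of 7 other settings, Psmc3 in 5 of 7 and Psme4 in 4 of 7.

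Rhythms that differed between feeding schedules in the joint fit were found for 30 members in controls and 35 in knockout. In controls the smallest edgeR adjusted p-values were those of Psmd11 (1.59e-15), Psmd1 (6.56e-11), Psmd14 (8.51e-10) and Psme3 (9.54e-10). In knockout they were those of Psmd14 (8.49e-14), Psmd1 (3.70e-11), Psme3 (3.90e-08) and Psmd5 (6.91e-08). The schedules were deposited as separate tables, so schedule and library series cannot be told apart.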

How the results depend on the processing

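The 7 genotype calls in ad libitum liver kept their direction and call in 8 other settings and in 48 fits that each left out 1 library. In reverse phase 9 of 11 did, and the exceptions were Psma6 and Psmd5 (adjusted p up to 0.0844 and 0.109 with a library left out). DESeq2's size factors moved no count of members by over 1.5 times. The counts that other settings moved are given next, and the cause was not tested. With time as a factor, 11 members were called for genotype and 0 for the rhythm difference in ad libitum liver, and endothelial cells gave 0 and 2 rhythms in controls and knockout and 0 differences. Without the libraries that stood apart, ad libitum liver gave 2 rhythm differences and 0 and 10 members with 12-hour terms, and endothelial cells gave 2 rhythms in controls and 1 difference. With the length covariate, ad libitum liver gave 3 rhythm differences and 0 and 0 members with 12-hour terms, reverse-phase knockout liver gave 1 with 12-hour terms, endothelial cells gave 0 and 1 rhythms and 0 differences, and the genotype effect differed between schedules in 1. Without a filter, 12-hour terms in ad libitum knockout liver went to 2, and endothelial cells gave 0 and 2 rhythms and 0 differences. DESeq2 gave 10 members with 12-hour terms in ad libitum knockout liver.

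With 1 library left out, ad libitum counts ran from 7 to 11 for genotype, 18 to 25 and 8 to 15 for rhythm in controls and knockout, 1 to 2 for its difference, and 0 to 5 and 1 to 10 for 12-hour terms. Reverse-phase counts ran from 9 to 12 for genotype, 26 to 37 and 34 to 38 for rhythm, and stayed at 0 for the rhythm difference and for 12-hour terms. Endothelial counts stayed at 0 for genotype and ran from 0 to 2 and 1 to 9 for rhythm and 0 to 6 for its difference, and Kupffer counts ran from 0 to 2 for rhythm in knockout and stayed at 0 in the other comparisons. In the joint fit, with all libraries of 1 number left out, they ran from 24 to 28 and 19 to 33 for feeding differences and stayed at 0 for the genotype difference.

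Control and knockout libraries share replicate numbers, and the labels do not say whether these pair them. The same-number correlations of deviations exceeded 0.1 in 3 of 24 pairs ad libitum, 6 of 24 in reverse phase, 1 of 12 in endothelial and 4 of 12 in Kupffer cells. Their medians were -0.00173, 0.0315, 0.0175 and 0.0386, against -0.00768, 0.0149, -0.00517 and -0.0319 for other numbers. With 3 libraries a group, such correlations cannot exclude a pairing. With a replicate block the counts were 8 for genotype and 18 and 11 for rhythm ad libitum, with 3 and 3 for 12-hour terms, 10, 31 and 37 in reverse phase, and 1 for the endothelial rhythm difference. Of the 3 numbers, a control correlated best with its own in 7 of 24, 8 of 24, 5 of 12 and 5 of 12 cases. The depth of the cell series is unknown.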
